A study of Mus musculus with 8 samples.

Results

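The genes described here write, read out or remove repressive marks on DNA and histones: the DNA methyltransferases Dnmt1, Dnmt3a and Dnmt3b with their cofactor Uhrf1, the methylcytosine dioxygenases Tet1, Tet2 and Tet3, and the Polycomb repressive complex 2 subunits Ezh2, Suz12 and Eed. They were listed by name, and all 10 were found among the 55276 gene symbols of the count table. RNA was sequenced in bulk from cells of the esophageal epithelium of C57BL6 mice aged 14 to 15 weeks, 2 females and 2 males. No transgene, gene deletion or drug is named for any animal. Live cells (DAPI negative) carrying integrin beta-1 at the surface were sorted by Cyto-ID, a dye that stains autophagic vesicles, into a Cyto-ID Low and a Cyto-ID High fraction, so that each of the 4 animals gave 1 library of each fraction and each fraction had 4 libraries. The study asked what sets apart basal esophageal cells that hold many autophagic vesicles.

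Dnmt1 copies methylation onto the new DNA strand behind the replication fork, where Uhrf1 recognises hemimethylated sites and recruits it, while Dnmt3a and Dnmt3b place methyl groups on unmethylated DNA. The Tet enzymes oxidise methylcytosine, after which the base can be lost by dilution or by base excision. In Polycomb repressive complex 2 (PRC2), Ezh2 or its relative Ezh1 is the catalytic subunit that methylates histone H3, and it needs Suz12 and Eed to work. In stratified epithelia, Dnmt1, Uhrf1 and Ezh2 are known for high levels in dividing progenitor cells.

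The total count per library ran from 26285150 to 29301054 reads, and 22208 to 28266 genes had a count. The 9 basal keratinocyte markers summed to 21006 to 24906 CPM (read counts scaled to libraries of a common size) in the Low libraries and to 2778 to 4482 in the High libraries, and all 9 were called lower in High. The 9 suprabasal markers went from 8766 to 25714 CPM in Low to 140869 to 242186 in High, and all 9 were called higher, so the sorted cells carried keratinocyte RNA in both fractions while the High fraction, though gated on integrin beta-1, held large amounts of suprabasal RNA. Markers of other cell types were low: the summed levels in Low and High were 53.8 to 89.2 and 9.26 to 89.2 CPM for 9 leukocyte genes (1 higher, 1 lower, Cd3e at 0 in some libraries). They were 308 to 480 and 36.6 to 456 CPM for 6 fibroblast genes (1 lower), 11.0 to 21.3 and 1.44 to 25.5 CPM for 6 endothelial genes (none called, Kdr at 0 in some libraries), and 17.3 to 33.3 and 1.29 to 46.2 CPM for 6 muscle genes (none called, Actg2 at 0 in some libraries). The High library of Male2 stood apart, with the fewest genes detected, the smallest scaling factor (0.679, against up to 1.30) and the lowest sum of all 4 of these lists. The part of cell type makeup in the results below was not tested, and in bulk RNA fewer cells of a type cannot be told apart from less RNA per cell.

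Promoter windows from RefSeq (GRCm38.p6, 250 bases before to 50 after each annotated start, 300 in all) were available for all 10 genes and are shown where they hold a letter match to sites of the cell-cycle E2f factors, because E2f factors drive many genes of S phase. The strings searched were TTTCCCGC, TTTGGCGC, TTTCGCGC and TTTGCCGC on both strands, and 744 of 32851 windows (2.26%) held any of the 4. Matches were found in a window of Dnmt1 (2 matches), Uhrf1, Ezh2 and Suz12, each printed 5′ to 3′ on the gene's strand with the match in capitals. For Dnmt1 the matches lie at chr9:20952824-20952853, on the opposite strand and beginning 219 bases before a downstream annotated start, and at chr9:20952574-20952603, beginning 33 bases after that start. For Uhrf1 the match is at chr17:56304117-56304146, beginning 185 bases before one of its starts. For Ezh2 it is at chr6:47595009-47595038, 3 bases after the start, and for Suz12 at chr11:79992876-79992905, 219 bases before the start.
Dnmt1 (upstream): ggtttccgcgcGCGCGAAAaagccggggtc
Dnmt1 (downstream): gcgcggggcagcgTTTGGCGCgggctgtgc
Uhrf1: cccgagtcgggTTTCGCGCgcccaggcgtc
Ezh2: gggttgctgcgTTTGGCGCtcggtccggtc
Suz12: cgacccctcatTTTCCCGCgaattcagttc
The windows of Dnmt3a, Dnmt3b, Tet1, Tet2, Tet3 and Eed do not hold these letters. A match is a description of the sequence only. Dnmt1 and Dnmt3a have 3 windows each, Uhrf1 has 2 and the other genes 1, while the share of 2.26% is per window. Every string searched contains CG, and the matched windows hold 31 to 41 CpG pairs against a median of 7 and an upper quartile of 20 over all windows, so that share is not matched for CpG content.

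Of the 10 genes, 6 were lower in Cyto-ID High than in Low (Uhrf1, Dnmt3a, Dnmt3b, Tet1, Ezh2 and Eed), 2 were higher (Tet2 and Tet3) and 2 did not pass the test (Dnmt1 and Suz12). Calls are at an adjusted p under 0.05 in edgeR's quasi-likelihood test with sex as covariate and Benjamini-Hochberg adjustment over all 17344 genes tested; all 10 genes passed the filter on low counts. The fractions differed widely: 48.7% of all genes tested were called, 23.4% higher and 25.3% lower in High. The lower share among the 10 genes was 60% and the higher share 20%, and their median log2 fold change was −0.94 against −0.09 for all genes tested. Levels below are CPM on TMM-adjusted library sizes (edgeR's correction for a few genes that take up many reads), in the order Female1, Female2, Male1 and Male2, and fold changes are log2 values of High over Low.

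**Figure D1:**
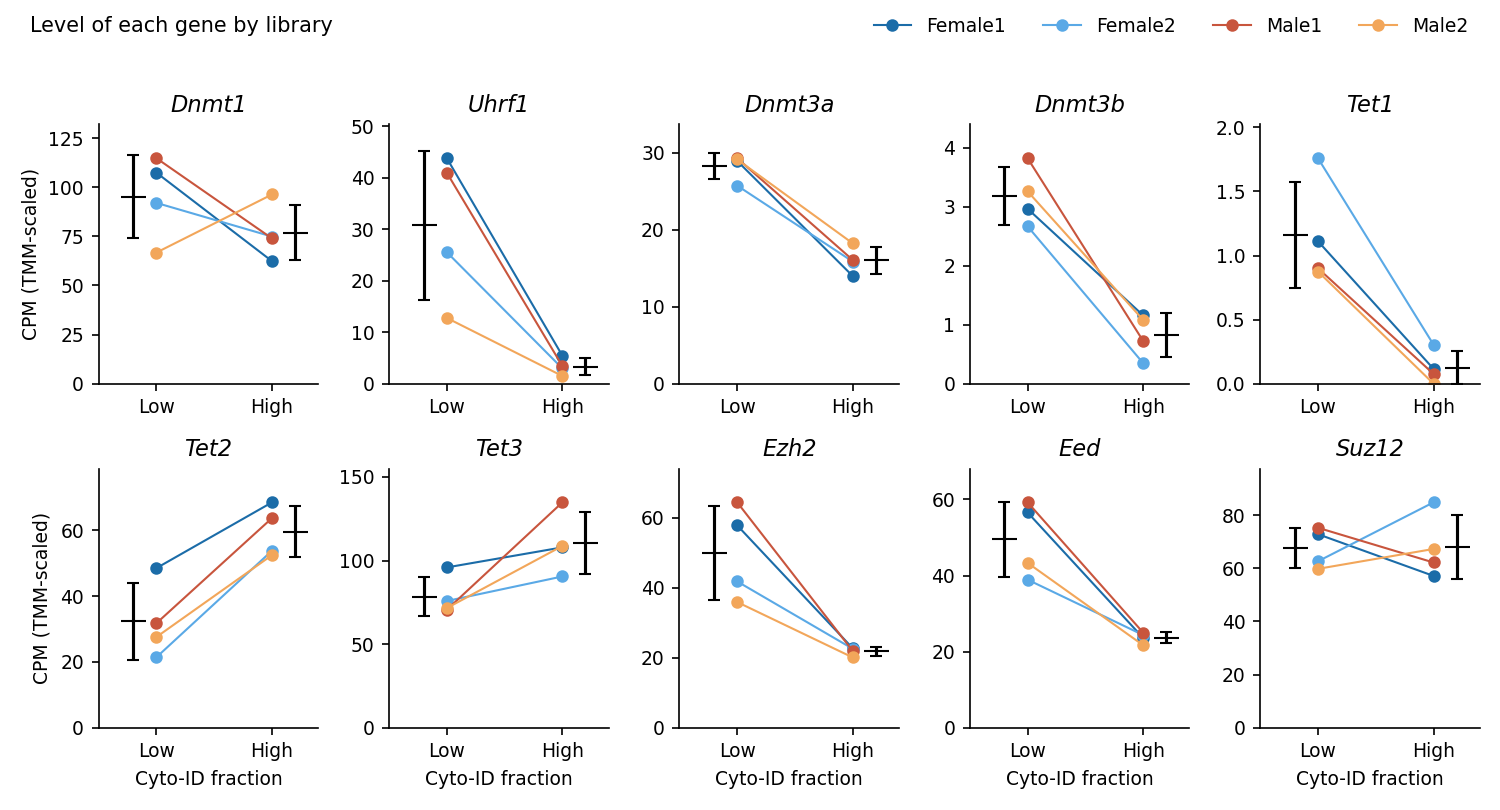
CPM of each of the 10 genes (vertical axis, from 0) in the Low and High fraction, with a line joining the 2 libraries of an animal and black bars for the mean and SD of 4 libraries. Uhrf1, Dnmt3a, Dnmt3b, Tet1, Ezh2 and Eed fell in all 4 animals, Tet2 and Tet3 were higher in all 4, and the lines of Dnmt1 and Suz12 cross.

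The maintenance pair parted: Uhrf1 fell steeply while Dnmt1 did not pass the test. Uhrf1 (chromosome 17, 56303321 to 56323486, plus strand, GRCm38 as for all positions of genes here) stood at 43.8, 25.5, 41.0 and 12.8 CPM in Low and at 5.44, 2.96, 3.43 and 1.49 CPM in High. The groups did not overlap, and Male2 was lowest in both fractions; 48.6% of all genes tested had groups that did not overlap. The means were 30.8 ± 14.4 CPM in Low and 3.33 ± 1.63 CPM in High (SD, n = 4), which is −3.22 in log2 units (SE 0.43, edgeR adjusted p = 0.000205), so that 10.7% of the Low level was left.

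Dnmt1 (chromosome 9, 20907209 to 20959888, minus strand) was at 107, 92.0, 115 and 66.7 CPM in Low and at 62.4, 74.9, 73.9 and 96.3 CPM in High. It was lower in High in 3 animals and higher in Male2, so the groups overlapped. The log2 fold change was −0.32 (SE 0.20, 95% interval −0.77 to 0.14, edgeR adjusted p = 0.233), which does not show equal levels. The outcome turned on Male2: Dnmt1 was called lower without the Low library of Male2 (−0.48, edgeR adjusted p = 0.0190) and without both its libraries (−0.52, edgeR adjusted p = 0.0382), but not without its High library (−0.44, edgeR adjusted p = 0.112). It was also called lower when libraries were scaled by total counts (−0.89, edgeR adjusted p = 0.00230), a scaling that shifts the median of all genes by −0.55. The ratio of Dnmt1 to Uhrf1 counts, which does not depend on scaling, was 2.45, 3.60, 2.80 and 5.22 in Low and 11.4, 25.1, 21.4 and 63.5 in High. Its geometric mean went from 3.37 to 25.0 (log2 difference 2.89, exact two-sided permutation p = 0.0286, the smallest that 4 against 4 libraries can give, adjusted p = 0.0364 over 14 ratios). Without any 1 of the 4 Low libraries, none of the 14 ratios had an adjusted p under 0.05. The log2 difference of Dnmt1 to Uhrf1 was then 2.74 to 3.10, with an exact permutation adjusted p of 0.05 to 0.0667. That adjusted p depends on how many of the 14 ratios lie at the smallest possible p.

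Among 9 partners of this step, 5 were lower (55.6%, against 25.3% of all genes tested), 1 was higher (11.1%, against 23.4%) and 3 did not pass, with a median of −0.53. Cdca7, which recruits the remodeller Hells to chromatin, went from 65.2 ± 11.8 to 7.29 ± 0.76 CPM (SD, n = 4; log2 fold change −3.16, SE 0.17, edgeR adjusted p = 1.27e-05). Hells itself fell by 2.39 (SE 0.41, edgeR adjusted p = 0.000904) and the DNA ligase Lig1 fell by 1.81 (SE 0.31, edgeR adjusted p = 0.000871). Usp7, a deubiquitinase that stabilises Dnmt1 and Uhrf1, was higher by 0.74 (SE 0.18, edgeR adjusted p = 0.00617), a call that was lost under total-count scaling (0.16, edgeR adjusted p = 0.285).

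Both de novo methyltransferases fell. Dnmt3a (chromosome 12, 3806007 to 3914443, plus strand) was at 28.9, 25.7, 29.3 and 29.1 CPM in Low and at 14.0, 15.8, 16.1 and 18.2 CPM in High. The groups did not overlap and the animals lay close together. The means were 28.2 ± 1.7 and 16.0 ± 1.7 CPM (SD, n = 4), or −0.82 as a log2 ratio (SE 0.13, edgeR adjusted p = 0.000497). Dnmt3a shares exon bases with Dnmt3aos on the other strand, and since it is not stated whether counting used strand, reads of the pair cannot be told apart.

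Dnmt3b (chromosome 2, 153649450 to 153687730, plus strand) was scarcer, at 2.97, 2.67, 3.82 and 3.26 CPM in Low and 1.16, 0.348, 0.724 and 1.08 CPM in High, from 96 to 123 counts per Low library and 8 to 30 per High library. Again no High library reached a Low one. The log2 fold change was −1.93 (SE 0.35, edgeR adjusted p = 0.00144). The ratio of Dnmt3a to Dnmt3b counts was higher in High in all 4 animals (log2 difference 1.21, exact permutation p = 0.0286, adjusted p = 0.0364), that is, Dnmt3b fell further than Dnmt3a. Relative to Dnmt1, Dnmt3a counts were also lower in High (log2 of Dnmt1 over Dnmt3a higher by 0.52, exact permutation p = 0.0286, adjusted p = 0.0364), a difference that stayed between 0.35 and 0.61 but was not under the threshold with any 1 of the 8 libraries left out (exact permutation adjusted p from 0.05 to 0.0727).

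**Figure D2:**
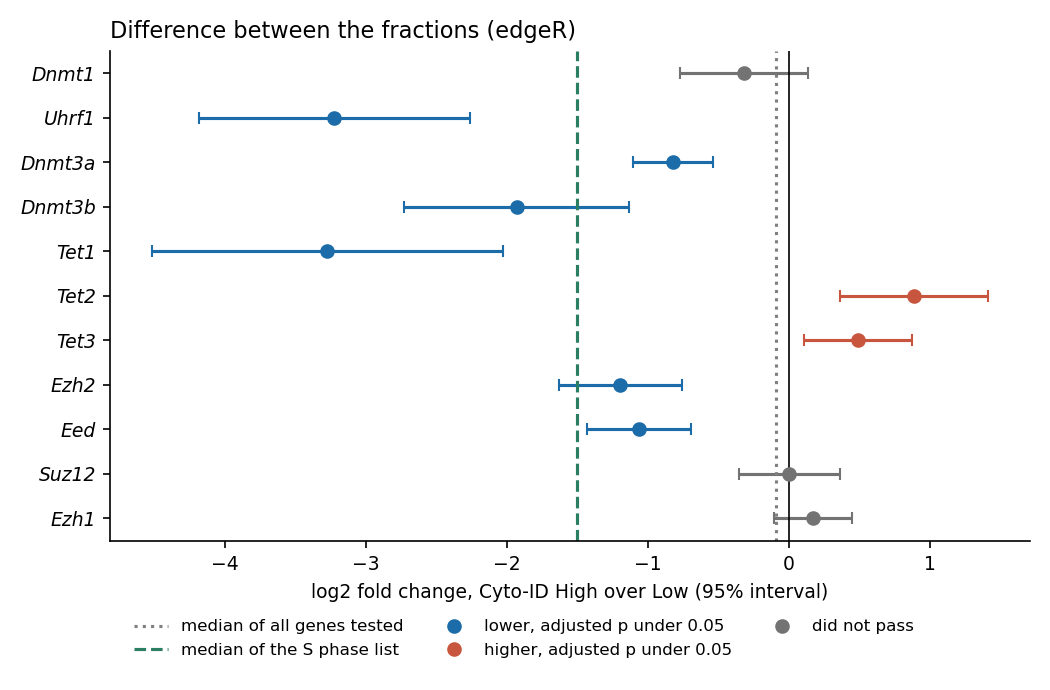
Log2 fold change of High over Low (horizontal axis) with its 95% interval for the 10 genes and Ezh1; the dotted line marks the median of all genes tested (−0.09) and the dashed line that of the S phase list (−1.50). Uhrf1 and Tet1 lie beyond −3, Tet2 and Tet3 lie above 0, and the intervals of Dnmt1, Suz12 and Ezh1 include 0.

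The 3 Tet genes did not move together. Tet1 (chromosome 10, 62804570 to 62908996, minus strand) was near the limit of detection, with 36, 64, 29 and 29 counts in Low and 3, 7, 2 and 0 in High, 158 against 12 in all. The Low libraries held 0.875 to 1.76 CPM and the High libraries 0 to 0.305 CPM. The count of 0 in the High library of Male2 allows up to 0.154 CPM (3 counts, counting error only). The fitted log2 fold change was −3.27 (SE 0.55, edgeR adjusted p = 0.000891). Without the High library of Female2 it was −3.91 (edgeR adjusted p = 0.00136), and without the High library of Male2 it was −2.96 (edgeR adjusted p = 0.000799). Over all fits that left out a library or an animal it ran from −3.91 to −2.90.

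Tet2 (chromosome 3, 133463679 to 133545139, minus strand) rose, from 48.5, 21.4, 31.8 and 27.6 CPM in Low to 68.5, 53.8, 63.7 and 52.5 CPM in High. The groups did not overlap. The means were 32.3 ± 11.6 and 59.6 ± 7.8 CPM (SD, n = 4), and Tet2 rose by 0.89 in log2 units (SE 0.23, edgeR adjusted p = 0.0106). Under total-count scaling the value was 0.35 (edgeR adjusted p = 0.268), and without animal Male1 it was 0.85 (edgeR adjusted p = 0.0503). Gm42567 overlaps Tet2 exons on the other strand.

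Tet3 (chromosome 6, 83362373 to 83459084, minus strand) had the highest level of the family per exon length, and its CPM were 95.9, 75.8, 70.6 and 71.6 CPM in Low and 108, 90.5, 135 and 109 CPM in High. It was higher in High in all 4 animals, but the groups overlapped. The log2 fold change was 0.49 (SE 0.17, edgeR adjusted p = 0.0364), and its direction depended on scaling: by total counts it was −0.05 (edgeR adjusted p = 0.849). The call was lost in 8 of the 12 fits that left out a library or an animal, and without the low-count filter (0.45, edgeR adjusted p = 0.0661). By count ratio, Tet1 fell in High relative to Tet2 (log2 difference −4.41) and relative to Tet3 (−3.96), each with an exact permutation p of 0.0286 and an adjusted p of 0.0364. The sizes rest on few counts and on the 0.5 added to the count of 0 in High Male2: without that library they were −3.80 and −3.30, and without High Female2 −5.01 and −4.61. Tet2 relative to Tet3 differed by 0.45 (exact permutation p = 0.0857, adjusted p = 0.100).

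Of 11 listed Tet partners and base excision genes, 10 could be tested: 3 were lower (30%, against 25.3% of all genes tested), 1 was higher (10%, against 23.4%) and 6 did not pass, with a median of −0.24. The share called in this list was thus below the 48.7% of all genes tested. Tdg, the glycosylase that removes oxidised methylcytosine, did not pass, at 25.5 CPM in Low and 25.8 CPM in High (log2 fold change 0.02, edgeR adjusted p = 0.939). The glycosylase Mbd4 fell by 1.12 (SE 0.34, edgeR adjusted p = 0.0209), the scaffold Xrcc1 by 0.65 (SE 0.14, edgeR adjusted p = 0.00362) and the endonuclease Apex1 by 0.56 (SE 0.16, edgeR adjusted p = 0.0140). Idh1, which makes the oxoglutarate that Tet enzymes use, was higher by 1.09 (SE 0.28, edgeR adjusted p = 0.00931) and missed the threshold under total-count scaling (0.49, edgeR adjusted p = 0.112). Of 7 methyl-CpG readers, 4 were lower (57.1%, against 25.3% of all genes tested) and none higher (against 23.4%), with a median of −0.64. The zinc-finger readers Zbtb38, Zbtb4 and Zbtb33 fell by 1.55 (SE 0.17), 1.12 (SE 0.19) and 0.78 (SE 0.17), with edgeR adjusted p of 6.36e-05, 0.000909 and 0.00439.

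The PRC2 core split. Ezh2 fell to 43.7% and Eed to 47.9% of the Low level, while Suz12 did not pass the test. Ezh2 (chromosome 6, 47530139 to 47595341, minus strand) was at 57.9, 41.8, 64.5 and 36.0 CPM in Low and at 22.7, 22.6, 22.0 and 20.1 CPM in High. The Low libraries spread widely and the High libraries lay within 3 CPM of each other, without overlap. The means were 50.0 ± 13.4 and 21.9 ± 1.2 CPM (SD, n = 4), and the fit gave a log2 change of −1.20 (SE 0.19, edgeR adjusted p = 0.000696).

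Eed (chromosome 7, 89954654 to 89980983, minus strand), the subunit that binds the methyl mark, was at 56.6, 38.9, 59.2 and 43.3 CPM in Low and 23.6, 24.4, 25.0 and 21.7 CPM in High. The groups did not overlap, and the order of the Low libraries was close to that of Ezh2, with the same pair of animals high. The means were 49.5 ± 9.9 and 23.7 ± 1.4 CPM (SD, n = 4), and the log2 value of High over Low was −1.06 (SE 0.16, edgeR adjusted p = 0.000508). On the other strand, E230029C05Rik overlaps Eed exons, Gm26625 those of Ezh2 and Gm26563 those of Suz12.

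Suz12 (chromosome 11, 79993106 to 80034123, plus strand), the subunit that holds the core together, was at 72.8, 62.6, 75.2 and 59.8 CPM in Low and 57.1, 84.8, 62.2 and 67.2 CPM in High. It was higher in High in 2 animals and lower in 2, and the groups overlapped. The log2 fold change was 0.00 (SE 0.16, 95% interval −0.35 to 0.36, edgeR adjusted p = 0.990), and by total counts it was −0.57 (edgeR adjusted p = 0.00502). The other catalytic subunit, Ezh1, was at 35.7 ± 2.7 CPM in Low and 40.3 ± 3.6 CPM in High (SD, n = 4; log2 fold change 0.17, 95% interval −0.11 to 0.45, edgeR adjusted p = 0.294), and by total counts it was called lower (−0.40, edgeR adjusted p = 0.0174).

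Count ratios within a library, which no scaling changes, gave the same split. They are not corrected for gene length, so only their change between fractions is compared. Ezh2 over Ezh1 was 1.80, 1.08, 1.79 and 0.993 in Low and 0.645, 0.547, 0.540 and 0.459 in High. Every High library lay below every Low one, and the geometric mean fell from 1.37 to 0.544 (log2 difference −1.33). Ezh2 over Suz12 fell from 0.724 to 0.326 (log2 difference −1.15) and Suz12 over Eed rose from 1.38 to 2.83 (log2 difference 1.04). Each of these 3 had an exact permutation p of 0.0286 and an adjusted p of 0.0364. Ezh2 over Eed was 0.998 in Low and 0.923 in High (log2 difference −0.11, exact permutation p = 0.286, adjusted p = 0.308). Without the Low library of Male2 that difference was −0.20 with every High library below every Low one (exact permutation adjusted p = 0.05, not under the threshold).

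Among the 11 other PRC2 subunits, 6 were lower (54.5%, against 25.3% of all genes tested) and 2 were higher (18.2%, against 23.4%). The other 3 did not pass, and the median was −0.43. Phf19, which guides PRC2 to target genes, fell by 2.44 (SE 0.34, edgeR adjusted p = 0.000273), from 7.46 ± 2.72 to 1.39 ± 0.43 CPM (SD, n = 4). The histone-binding Rbbp4 fell by 0.89 (SE 0.14, edgeR adjusted p = 0.000624) and Epop by 0.69 (SE 0.21, edgeR adjusted p = 0.0213). Jarid2 and Lcor, listed here as genes of accessory subunits, were higher, by 0.57 (SE 0.14, edgeR adjusted p = 0.00857) and 0.91 (SE 0.26, edgeR adjusted p = 0.0163). Neither passed under total-count scaling (0.02 and 0.38, edgeR adjusted p = 0.928 and 0.278). Counts by gene do not tell different products of Lcor apart.

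Polycomb repressive complex 1 (PRC1) ubiquitinates histones and binds the mark that PRC2 leaves. Of its 23 listed subunits, 9 were lower (39.1%), 3 were higher and 11 did not pass, with a median of −0.27. Scmh1, Pcgf2 and Cbx6 fell most, by 2.38 (SE 0.20), 1.73 (SE 0.20) and 1.65 (SE 0.18), with edgeR adjusted p of 1.83e-05, 0.000102 and 7.47e-05. Cbx6 shares exon bases with Npcd on the same strand. Kdm2b does so with Gm44574, and with 2 genes on the other strand. Kdm2b, which tethers a PRC1 variant to unmethylated CpG islands, was higher by 0.77 (SE 0.26, edgeR adjusted p = 0.0314) and Pcgf3 by 0.36 (SE 0.13, edgeR adjusted p = 0.0447). By total counts these were 0.16 (edgeR adjusted p = 0.536) and −0.21 (edgeR adjusted p = 0.142).

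Of 7 genes that oppose Polycomb marks, 6 could be tested, with 2 lower (33.3%, against 25.3% of all genes tested), 1 higher (16.7%, against 23.4%) and a median of −0.25. The share called was close to the 48.7% of all genes tested. Bap1, a deubiquitinase that reverses the PRC1 mark, and its cofactor Asxl1 fell by 0.88 (SE 0.13, edgeR adjusted p = 0.000359) and 1.06 (SE 0.15, edgeR adjusted p = 0.000252). Usp16, another such deubiquitinase, was higher by 0.87 (SE 0.16, edgeR adjusted p = 0.00167) and at 0.29 by total counts (edgeR adjusted p = 0.0530). Usp16 overlaps Cct8 on the other strand.

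All of these methyltransferases use S-adenosylmethionine (SAM). Of 10 genes of its supply 9 could be tested: 5 were lower (55.6%, against 25.3% of all genes tested) and 1 was higher (11.1%, against 23.4%). The other 3 did not pass, and the median was −0.47. Mtr, the methionine synthase, fell by 2.57 (SE 0.19, edgeR adjusted p = 1.39e-05), from 19.4 ± 2.6 to 3.25 ± 0.58 CPM (SD, n = 4). Ahcy, which clears the inhibitory product of methyl transfer, fell by 1.30 (SE 0.15, edgeR adjusted p = 0.000100) and its relative Ahcyl2 fell by 1.47 (SE 0.12, edgeR adjusted p = 2.01e-05). Under total-count scaling the 7 partner lists had more genes lower: 8 maintenance partners, 7 readers, 7 Tet partners and base excision genes, 9 other PRC2 subunits, 17 PRC1 subunits, 5 opponents and 7 supply genes. So did the whole set: 8514 of the 17344 genes tested were then called lower, against 4385 in the main fit. With DESeq2's size factors (RLE) in edgeR, other PRC2 subunits had 4 genes lower in place of 6, as Rbbp7 and Mtf2 lost their calls, and Yaf2 of PRC1 and Mtrr of the SAM supply were called higher. With the animal as a block, Dmap1, Ogt and Mat2b were also called lower and Smug1 and Yaf2 higher.

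**Figure D3:**
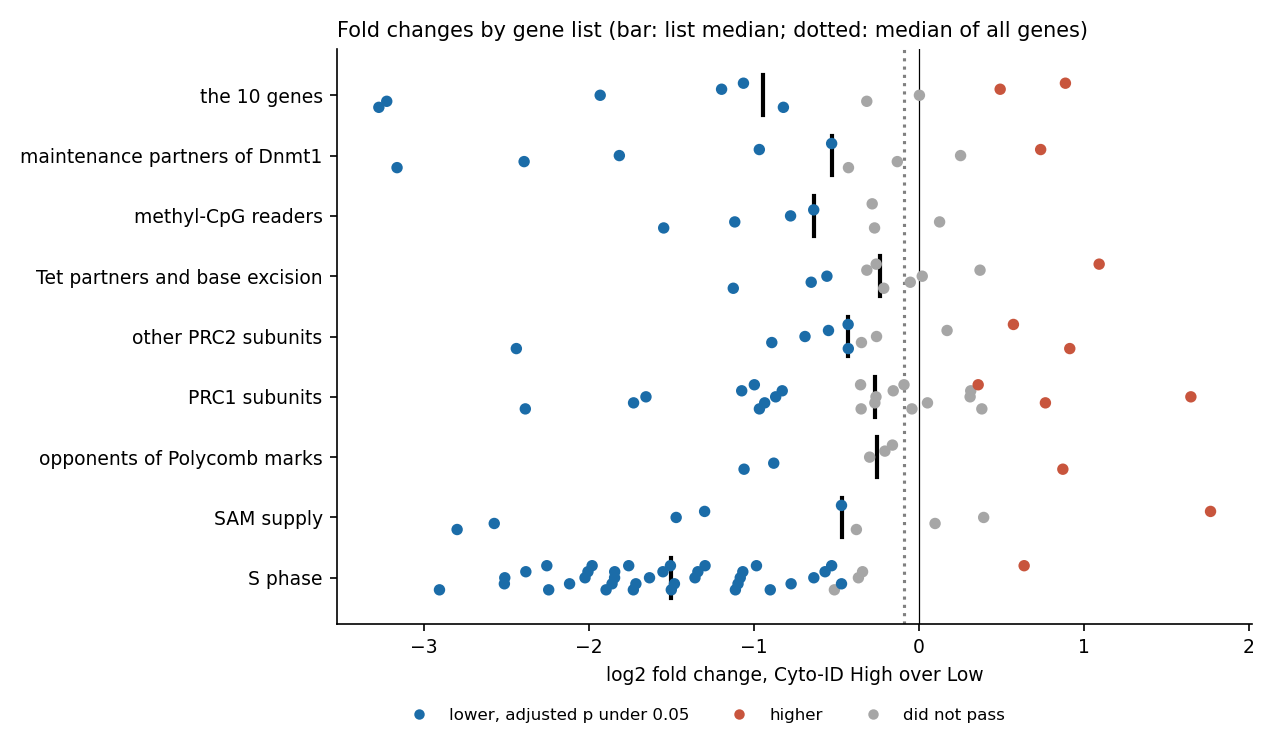
Log2 fold change of High over Low (horizontal axis) of every tested gene in each list, coloured by call, with a bar at the list median and a dotted line at the median of all genes (−0.09). The medians of the 7 partner lists lie between −0.64 and −0.24, the 10 genes have a median of −0.94, and the S phase list has one of −1.50.

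Several of these genes are known to be made mostly in S phase, so the counts of Ezh2, Dnmt1 and Uhrf1 were set against 40 S phase genes that include none of the 10. Of those 40, 36 were lower (90%, against 25.3% of all genes tested) and 1 was higher (2.5%, against 23.4%). The other 3 (Prim1, Gmnn and Ubr7) did not pass, and with the animal as a block these 3 were also called lower. The summed level of the 40 genes was 1074, 813, 1084 and 635 CPM in Low and 426, 400, 385 and 347 CPM in High. The lowest Low library was Male2, which also had the lowest Low levels of Dnmt1, Uhrf1, Ezh2 and Suz12 and the highest suprabasal sum in Low (25714 CPM).

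No difference between the fractions was detected for Ezh2 relative to the S phase sum. Its ratio was 0.0539, 0.0515, 0.0595 and 0.0566 in Low and 0.0534, 0.0566, 0.0571 and 0.0581 in High. All 8 libraries lay in this narrow band (log2 difference 0.03, SD within animals 0.08, exact permutation p = 0.714, adjusted p = 0.714). The sum gives most weight to abundant genes of the list. The median log2 fold change of the list was −1.50, against −1.20 (SE 0.19) for Ezh2. Dnmt1 had a ratio of 0.100, 0.113, 0.106 and 0.105 in Low, and of 0.146, 0.187, 0.192 and 0.278 in High. Relative to S phase genes Dnmt1 was thus higher in High in all 4 animals, without overlap (log2 difference 0.88, exact permutation p = 0.0286, adjusted p = 0.0364). Uhrf1 went the other way, with a geometric mean ratio of 0.0314 in Low and 0.00782 in High (log2 difference −2.01, exact permutation p = 0.0286, adjusted p = 0.0364), lower in all 4 animals.

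**Figure D4:**
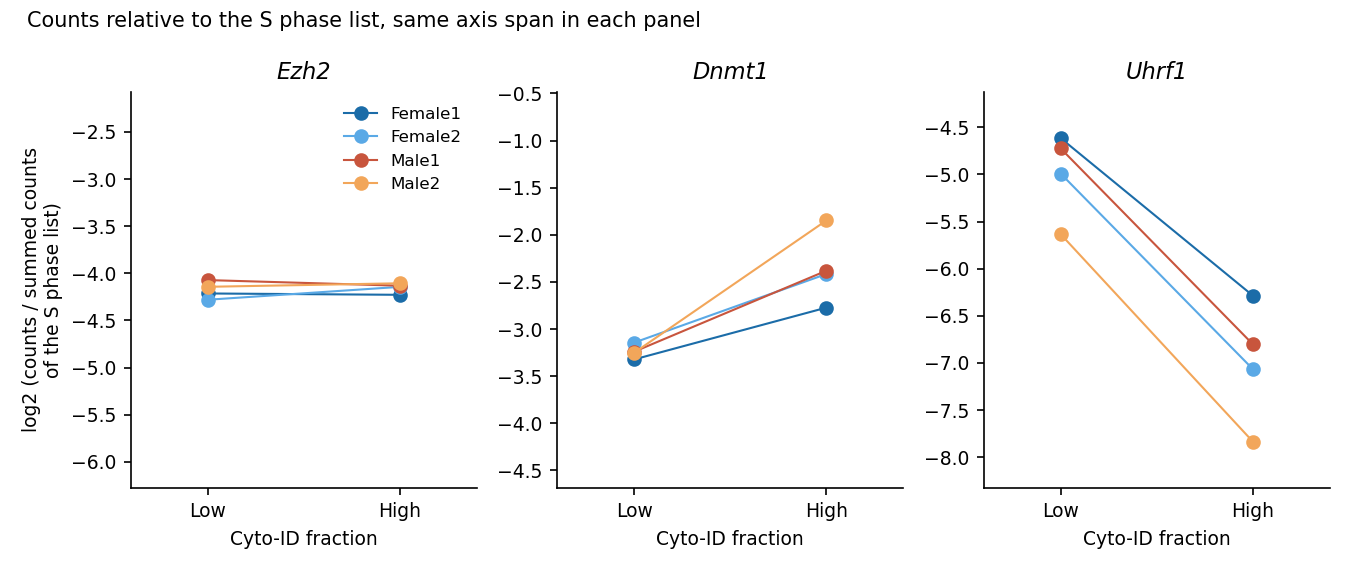
Log2 ratio of counts to the summed counts of the S phase list (vertical axis, the same span in each panel) for Ezh2, Dnmt1 and Uhrf1 in Low and High, with a line per animal. Ezh2 lies between ratios of 0.0515 and 0.0595 in all 8 libraries, Dnmt1 is higher in High in all 4 animals by 0.88 on average, and Uhrf1 is lower in all 4 by 2.01.

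The genes with the most similar pattern over the 8 libraries, by the root mean square difference in centred log2 CPM among 9999 genes, are a description only. For Ezh2 they were Prim2, Topbp1 and Cenpc1 (0.0612 to 0.0839) and for Uhrf1 Kif2c, Cdc25c and Bub1b (0.152 to 0.179). For Dnmt1 they were Brd9, Rpa1 and H2ax (0.0977 to 0.115). Eed was nearest to Srsf7, Gas5 and Topbp1 (0.0851 to 0.0996), and Suz12 to Fnbp1l, Zcchc7 and Ssb (0.0574 to 0.0813). Tet2 was nearest to Lcor (0.0850), followed by Foxc1 and Inpp4a, and Tet3 to Golgb1, Utrn and Herc2 (0.0968 to 0.122). Dnmt3a was nearest to Tshz1, Ano6 and Zfp319 (0.0557 to 0.0833) and Dnmt3b to Prr7, Procr and Maged1 (0.247 to 0.278). Tet1, with few counts, had no close neighbour among the genes compared: Tfap4, Nuak1 and Sh3bgrl lay at 0.486 to 0.548. Those genes all had a mean of at least 5 CPM, against 0.643 CPM for Tet1, so genes as scarce as Tet1 could not be chosen.

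To compare genes with each other, levels were divided by exon length (CPM per kilobase of merged exons in GRCm38). In Low the order was Suz12 (13.7), Eed (12.9), Dnmt1 (12.9), Ezh2 (7.49), Uhrf1 (7.22), Tet3 (4.70), Tet2 (1.92), Dnmt3a (1.70), Dnmt3b (0.622) and Tet1 (0.0752). The libraries of neighbouring genes overlapped except at the steps from Tet3 to Tet2, from Dnmt3a to Dnmt3b and from Dnmt3b to Tet1. In High the order was Suz12 (13.7), Dnmt1 (10.4), Tet3 (6.62), Eed (6.19), Tet2 (3.53), Ezh2 (3.27), Dnmt3a (0.963), Uhrf1 (0.782), Dnmt3b (0.162) and Tet1 (0.00803). Here Suz12 and Dnmt1, Tet3 and Eed, Tet2 and Ezh2, and Dnmt3a and Uhrf1 overlapped as neighbours, and the other steps were clear. With the length of the longest transcript in place of merged exons, 7 of 10 genes in Low and 6 of 10 in High kept their rank. Eed (24.0) and Ezh2 (18.0) then led in Low, followed by Dnmt1 (16.2) and Suz12 (15.5), while Suz12 (15.5) still led in High.

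**Figure D5:**
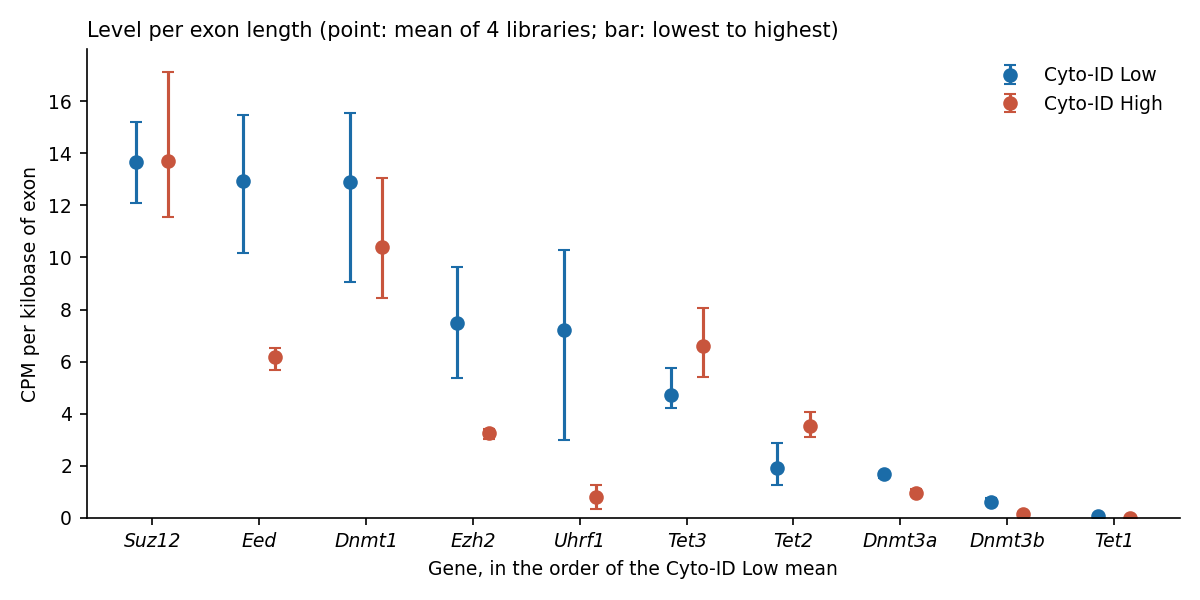
CPM per kilobase of exon (vertical axis, from 0) for the 10 genes in the order of the Low mean; points are means of 4 libraries and bars run from the lowest to the highest library. Suz12 stands at 13.7 in both fractions with these lengths, and Uhrf1 drops from 7.22 to 0.782.

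No dependence of the fraction difference on sex was detected for any of the 10 genes, but the test could show little. In edgeR's test of the interaction of sex and fraction, 0 of the 17344 genes (0%) passed and 19 had an unadjusted p under 0.05, none of them among the 10. Chance alone would give about 1 in 20 genes such a p, far more than 19. The test thus gave too few small p-values, and 0 genes passing says little about sex. The interaction of Tet3 lay furthest from 0 in units of its SE (log2 difference, male minus female, 0.57, SE 0.32, edgeR adjusted p = 1.00). The SE of these 10 interaction values ran from 0.28 (Dnmt3a) to 1.21 (Tet1), so a dependence on sex could be missed.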

How the data were processed

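For the 8 libraries of total RNA the authors deposited raw counts by gene symbol in 1 table, and the submitters' processing notes name STAR 2.7.3, DESeq2 and GRCm38, with no role given. The counting tool, the annotation and the strandedness are not given in the sources used here, so reads of overlapping genes may be split or shared. All 8 columns were matched to samples by title. The members and gene lists were chosen with earlier results of these data known.

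The test used edgeR 4.0.16 in R 4.3.3 (filterByExpr by fraction, TMM, glmQLFit and glmQLFTest with sex as covariate, Benjamini-Hochberg, threshold 0.05). CPM are TMM-scaled. Ratios used counts plus 0.5. Named partners were, in each list, the 3 genes called with the largest fold change in each direction and a mean of at least 1 CPM, and Ezh1; Tdg was chosen after its values were seen. Some genes that this rule names are not reported here. Similar patterns were sought among genes with a mean of at least 5 CPM. Exon lengths came from GENCODE on GRCm38. Alternatives were other scalings, filters, DESeq2 1.42.0, limma-voom (limma 3.58.1), no covariate, the animal as block, and each library or animal left out.

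Both fractions of an animal carry its name. Checked across genes, the log2 CPM of an animal's 2 libraries, each centred on its fraction, correlated within Female1 (0.433), Female2 (0.316) and Male2 (0.277), not within Male1 (−0.0161), and between different animals the range was −0.372 to 0.35, so the pairing rests on the names. No 2 libraries were copies (chi-square per degree of freedom at least 17.7). Precision is limited by 4 libraries per fraction, and low counts limit Tet1 and Dnmt3b.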

Additional observations from a re-analysis of the deposited data

Results flagged for a closer look

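Among 50 groups of 4 libraries examined, 3 held a library further from the others than Dixon's 95% critical value for 4 values allows, where chance gives about 1 in 20. Dnmt3a in Low was 25.7 CPM in Female2 against 28.9 to 29.3 CPM in the other 3 libraries. The log2 ratio of Dnmt1 to Dnmt3a counts in Low was 1.20 in Male2 against 1.84 to 1.97 in the others. The log2 ratio of Tet1 to Tet3 counts in Low was −5.42 in Female2 against −6.41 to −6.27 in the others.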

How the results depend on the processing

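Dnmt3a, Dnmt3b, Uhrf1, Tet1, Ezh2 and Eed kept their direction and call under every alternative that gave a value; the filter of at least 10 counts in every library removed Dnmt3b and Tet1. The count of the 10 genes that were higher went from 2 to 0 under total-count scaling, to 1 without a low-count filter and to between 0 and 2 in the fits that left out a library or an animal (0 without animal Male1, 1 without animal Male2). Scaling by total counts turned Tet3 to −0.048, Suz12 to −0.57 and Ezh1 to −0.40, and called 2194 genes higher and 8514 lower, against 4055 and 4385. Suz12, with a value near 0, was −0.036 without a filter, −0.018 with at least 10 counts, −0.00436 with limma-voom, −0.00472 with the animal as replicate block, and −0.13 to 0.10 with a library or an animal left out. The block called 9336 genes in place of 8440 and changed no call among the 10 genes. Of 14 ratios, 11 passed; with a library left out 0 to 10 did, and tested within animals as a replicate block 0 did, since 4 pairs cannot reach the threshold. Without any 1 of the 4 Low libraries 0 ratios passed, and without any 1 of the 4 High libraries 10 did. With so few libraries the exact p has a floor. Whether a ratio at that floor passed depended on how many of the 14 were there too, so these counts do not measure how far a ratio rests on a library. The log2 difference of Ezh2 against the S phase sum ran from −0.00931 (without the Low library of Female2) to 0.0602 with a library left out. With transcript length, 6 of 10 genes kept their rank in High. In each case the cause was not tested.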
